A study of Mus musculus with 8 samples.

Results

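The miR-30 family was followed through 8 libraries of small RNA from mouse embryonic stem cells, as 8 rows out of the 1915 mature miRNAs of the deposited table. These were 5 arms from the 5′ side of their hairpins (mmu-miR-30a-5p, mmu-miR-30b-5p, mmu-miR-30c-5p, mmu-miR-30d-5p and mmu-miR-30e-5p) and 3 from the 3′ side (mmu-miR-30a-3p, mmu-miR-30d-3p and mmu-miR-30e-3p), written below without the species prefix. They were chosen by family name, and the family was selected on its counts and the balance of its arms in these same 8 libraries. The counts, levels and arm shares are therefore a description, and no p-value is given for a member. All 8 passed the filter on low counts.

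The libraries formed 4 groups of 2. The induced and the uninduced AGO1 line are Ago2 knockout cells with an inducible ectopic AGO1, sequenced with and without doxycycline at 1 µg/mL and kept in puromycin at 2 µg/mL. The labels name this line after knockout line 1, and its libraries A and B come from 1 line. The third group holds 2 Ago2 knockout lines with 1 library each, and the last group is wild type E14 with libraries A and B. All 6 libraries other than wild type thus lack Ago2, and all cells are of 129/Ola background and grew with LIF in serum. Whether A and B were separate cultures is not stated, so the spread within a group may be technical. The genotypes rest on the labels, since neither Ago2 mRNA nor AGO proteins were analysed here.

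Totals of miRNA counts ranged from 163467 to 1326638 per library, lowest in knockout line 2 and next lowest in uninduced library B. Pluripotent cell miRNAs (arms of the miR-290 and miR-302 clusters, 23 of 24 with a count and mmu-miR-367-5p at 0) took 27.3 to 27.95% of counts in the induced AGO1 line, 25.4 to 26.1% in the uninduced line, 29.5 to 30.8% in the knockout lines and 25.8 to 27.99% in wild type. Of 6 blood miRNAs 4 had a count and miR-223-3p and miR-451a were at 0. The list took 0.327 to 0.348% in the induced line, 0.633 to 0.693% in the uninduced line, 0.638 to 0.777% in the knockout lines and 0.163 to 0.187% in wild type. Of 5 fibroblast miRNAs 4 had a count and miR-214-3p was at 0, with 0.166 to 0.179%, 0.0327 to 0.0386%, 0.0496 to 0.0515% and 0.283 to 0.373% in the same order of groups. Neural miRNAs (3 of 3 with a count) took at most 0.166% of any library. Muscle miRNAs (1 of 3 with a count) took at most 0.000683%, and the liver miRNA miR-122-5p was at 0. The part of these lists in the miR-30 values was not tested.

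A miRNA gene gives a hairpin RNA that is cut to a short duplex, and either strand of the duplex can be loaded into an Argonaute protein and become the lasting mature miRNA, while the other is usually degraded. The guide then pairs with target mRNAs mainly through its seed, bases 2 to 8. AGO2 is the mammalian Argonaute best known for slicing, and AGO1 is a relative that holds miRNAs with little slicing. The miR-30 family is known as abundant in differentiated tissues such as kidney and heart. It is one of the families in which the 3′ arm of some hairpins is often found in appreciable amounts beside the 5′ arm.

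RefSeq gave the sequence of 5 of the 8 members, on mouse build GRCm38.p6. They are printed 5′ to 3′ with the seed in capitals, together with both miR-30c 3p arms, which are no members, to set their seeds side by side.
miR-30a-5p: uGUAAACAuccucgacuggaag
miR-30e-5p: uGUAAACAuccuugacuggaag
miR-30c-5p: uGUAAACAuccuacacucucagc
miR-30a-3p: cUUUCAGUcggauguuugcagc
miR-30e-3p: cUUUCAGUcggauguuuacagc
miR-30c-1-3p: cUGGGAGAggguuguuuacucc
miR-30c-2-3p: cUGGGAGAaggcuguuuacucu
The 3 5p sequences share the seed GUAAACA. The 3p arms of miR-30a and miR-30e share another, UUUCAGU, and the miR-30c 3p arms share UGGGAGA. Counts that differ between the arms of a hairpin thus differ between seeds. Counted from 1 at the 5′ end, miR-30a-5p and miR-30e-5p differ at 1 base (C13U, the base of miR-30a first), and miR-30a-3p and miR-30e-3p at 1 base (G18A). Over 22 bases miR-30c-5p differs from miR-30a-5p at 5. How the authors handled reads that match several miRNAs is not given in the sources used here, so the counts of miR-30a and miR-30e are uncertain to that extent. The other members are not thereby free of it. For miR-30b and miR-30d, without a sequence here, it could not be judged.

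The hairpins of miR-30a and miR-30e show where both arms lie, with the 5p arm as the first and the 3p arm as the second run of capitals.
Mir30a: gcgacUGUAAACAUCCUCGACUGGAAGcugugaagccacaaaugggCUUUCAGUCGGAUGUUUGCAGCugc
Mir30e: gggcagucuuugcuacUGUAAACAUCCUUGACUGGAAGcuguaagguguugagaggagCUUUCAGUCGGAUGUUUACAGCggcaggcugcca
Mir30a lies at chr1:23272269-23272339 on the plus strand, where GENCODE vM21 (GRCm38) annotates no other gene. Mir30c-2, 19.4 kb further on the same strand at chr1:23291701-23291784, overlaps an exon of the lincRNA Gm27028. Mir30e (chr4:120772606-120772697) and Mir30c-1 (chr4:120769534-120769622) lie on the minus strand 2.98 kb apart, both within an intron of Nfyc, the gene of a subunit of the transcription factor NF-Y. miR-30c-5p can come from both of its genes, whereas its 3p arms tell them apart.

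Levels are given in CPM, counts scaled to parts per 1e6 by library totals and TMM factors. They were not divided by length, since the sequenced members have 22 or 23 bases. In wild type the most abundant of the 8 was miR-30e-3p, followed by miR-30a-5p, miR-30b-5p and miR-30a-3p, and the 5p members held more counts than the 3p members. In each group without Ago2, miR-30e-3p and miR-30b-5p stood far above the other members, miR-30a-5p ranked 6th or 7th, and the 3p members held more counts than the 5p members. The 3p members made up 61.3 and 62.0% of the family's counts in the induced AGO1 line, 60.4 and 63.7% in the uninduced line and 59.4 and 54.9% in the knockout lines, against 41.7% in both wild type libraries. All 6 libraries without Ago2 lay above both wild type libraries.

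Within wild type the ranges of neighbouring members overlapped only for miR-30d-3p and miR-30e-5p, the lowest pair. In the knockout lines miR-30c-5p, miR-30a-5p and miR-30d-5p could not be ordered, nor could miR-30a-3p and miR-30d-3p. In the uninduced line miR-30c-5p, miR-30a-5p and miR-30d-5p overlapped likewise. In the induced line no neighbours did.

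**Figure D1:**
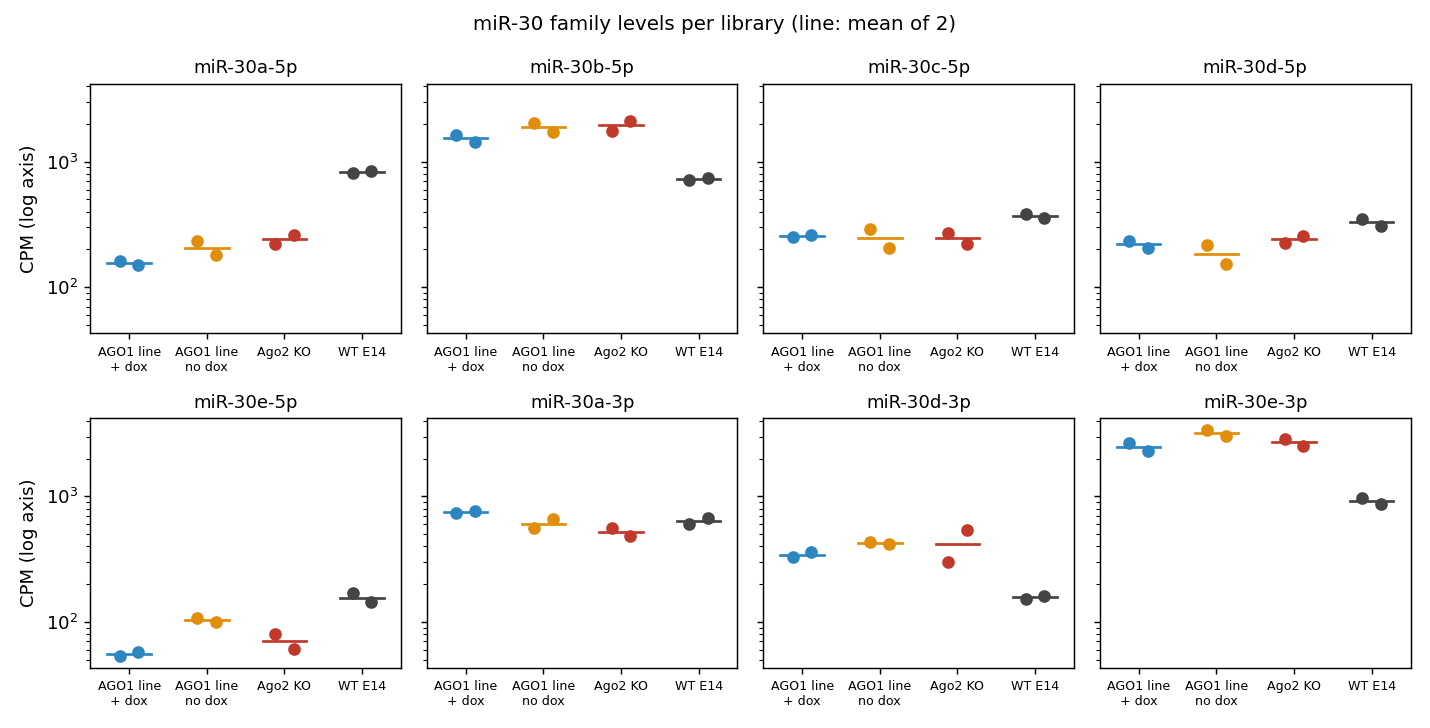
Level of each member in CPM (log axis) in the 4 groups, with a point per library and a line at the mean of 2. The libraries without Ago2 lie below wild type for miR-30a-5p, miR-30c-5p, miR-30d-5p and miR-30e-5p. They lie above it for miR-30b-5p, miR-30d-3p and miR-30e-3p.

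As a share of all miRNA counts, the 8 members took 0.516 ± 0.0239% in the induced AGO1 line, 0.705 ± 0.0505% in the uninduced line, 0.746 ± 0.0596% in the knockout lines and 0.388 ± 0.0267% in wild type (SD, n = 2 each). The 3p members held 0.318 ± 0.0122%, 0.437 ± 0.0147%, 0.426 ± 0.0107% and 0.162 ± 0.0109% in the same order, and the 5p members 0.198 ± 0.0117%, 0.268 ± 0.0358%, 0.321 ± 0.0489% and 0.226 ± 0.0158%. Levels and shares are relative to all miRNAs of a library. In these bulk samples, fewer cells that make a miRNA and less of it per cell cannot be told apart.

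The knockout lines were compared with wild type, which asks how miRNA levels differ without AGO2. Differences between lines cannot be told apart from the loss of Ago2 here. The knockout libraries also held fewer counts (359099 and 163467, against 949620 and 1115712 in wild type), and fits with thinned libraries are given below. Among the 5p members, miR-30a-5p and miR-30e-5p were lower in the knockout lines and miR-30b-5p was higher. miR-30d-3p and miR-30e-3p were also higher, and miR-30a-3p, miR-30c-5p and miR-30d-5p differed by less than 1 on the log2 scale. A call is an adjusted p under 0.05 by edgeR's quasi-likelihood test with Benjamini-Hochberg adjustment over all 475 miRNAs tested. By that rule 5 of the 8 members were called, 3 higher and 2 lower, beside 57.7% of all tested miRNAs (25.5% higher and 32.2% lower). In all 8 the groups did not overlap, as in 77.3% of tested miRNAs. The counts chose the family, and nothing is read from this number.

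miR-30a-5p, known in human cells for repressing the autophagy gene BECN1, had 222 and 262 CPM in knockout lines 1 and 2, against 812 and 836 CPM in wild type A and B. It was the 5p member with the largest difference, 3.42-fold lower (log2 fold change -1.78 ± 0.23, SE from the edgeR fit). miR-30e-5p, from the intron of Nfyc, had 79.8 and 60.4 CPM in the knockout lines, against 168 and 143.9 CPM in wild type. Its log2 fold change was -1.12 ± 0.30, and its knockout values rest on 32 and 12 counts. That call was lost in a fit of only the 2 groups, without wild type A, without the 2 shallowest libraries and with thinned libraries.

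miR-30c-5p, known in rat heart for repressing the connective tissue growth factor gene, had 272 and 221 CPM in the knockout lines, against 386 and 353 CPM in wild type. For miR-30d-5p the values were 225 and 257 CPM in the knockout lines, against 350.0 and 305 CPM in wild type. These differences were small (-0.57 ± 0.25 and -0.45 ± 0.26 on the log2 scale), and neither was called.

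miR-30b-5p went the other way, with 1766 and 2123 CPM in the knockout lines, against 708 and 747 CPM in wild type (log2 fold change 1.42 ± 0.19). Both knockout lines stood above both wild type libraries. It made up 70.8 ± 2.66% of the counts of the 5p members in the knockout lines, against 30.3 ± 1.48% in wild type, whereas miR-30a-5p made up 8.80 ± 0.207% in the knockout lines, against 34.3 ± 1.11% in wild type (SD, n = 2 each). The summed level of the 5 differed less than that of miR-30a-5p or miR-30b-5p alone, with 2565 and 2923 CPM in the knockout lines, against 2424 and 2384 CPM in wild type.

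On the 3p side, miR-30e-3p had 2881 and 2540 CPM in the knockout lines, against 980.1 and 863 CPM in wild type (log2 fold change 1.56 ± 0.18). miR-30d-3p had 299 and 538 CPM in the knockout lines, against 153 and 160.1 CPM in wild type (1.40 ± 0.28). Both were above wild type in each knockout line, but the lines differed widely from each other in miR-30d-3p. miR-30a-3p had 564 and 483 CPM in the knockout lines, against 604 and 679 CPM in wild type, a log2 fold change of -0.29 ± 0.20 that became 0.01 without TMM factors. The median log2 fold change was -0.57 over the 5p members and 1.40 over the 3p members, beside -0.12 over the 475 tested miRNAs, -0.14 over the 219 tested 5p arms and -0.25 over the 217 tested 3p arms. Scaled by library totals alone, that overall median was 0.16, and the 5 calls kept their direction.

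**Figure D2:**
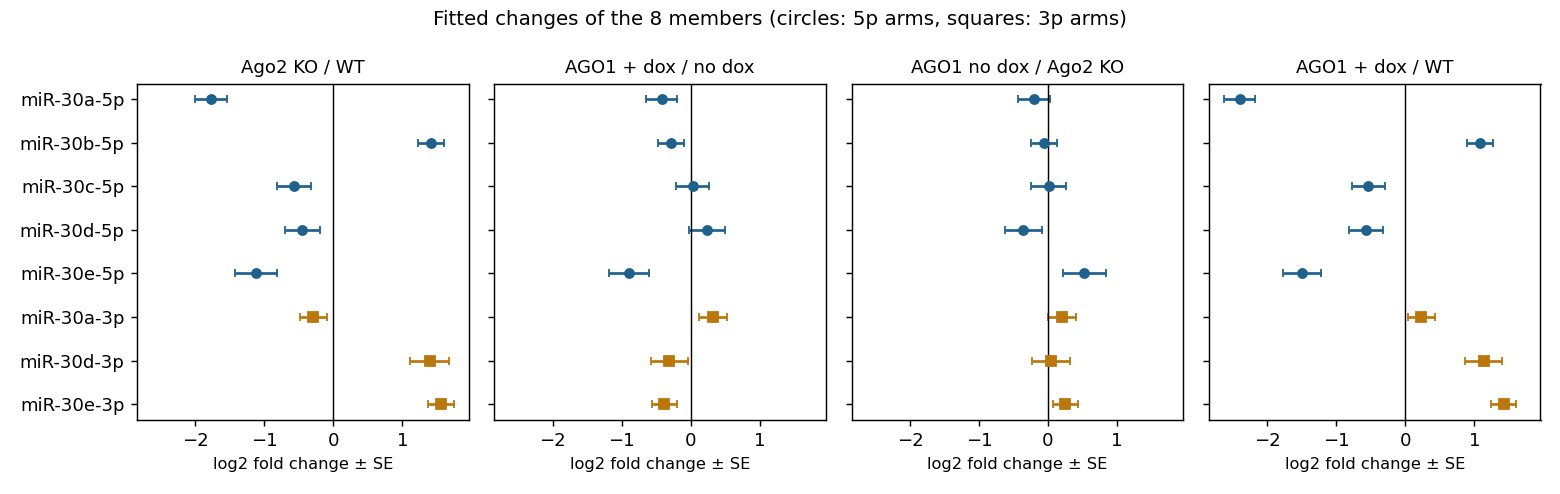
Fitted log2 fold change of each member (bars: SE) in the 4 comparisons, the first-named group over the second, with circles for 5p arms and squares for 3p arms. In knockout against wild type and in induced AGO1 line against wild type, miR-30a-5p, miR-30c-5p, miR-30d-5p and miR-30e-5p lie left of 0. In both, miR-30b-5p, miR-30d-3p and miR-30e-3p lie right of it.

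The balance of the arms was described within each hairpin, where depth and scaling cancel. miR-30a gave 28.3 and 35.1% of its counts from the 5p arm in knockout lines 1 and 2, against 57.3 and 55.2% in wild type A and B. The 95% Wilson intervals were 23.6 to 33.5% and 27.9 to 43.1% in the knockout lines, against 54.5 to 60.1% and 52.8 to 57.5% in wild type. They cover counting error only: without molecular identifiers, reads are not separate molecules. The major arm of miR-30a was thus the 3p arm in both knockout lines and the 5p arm in both wild type libraries.

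miR-30d showed the same change of major arm, with 42.9 and 32.3% from the 5p arm in the knockout lines, against 69.6 and 65.6% in wild type. In miR-30e the 3p arm was the major arm in every library. Its 5p arm held 2.70 and 2.32% in the knockout lines, against 14.7 and 14.3% in wild type, so that there were 36.1 and 42.1 counts of the 3p arm for each count of the 5p arm in the knockout lines, against 5.82 and 5.99 in wild type. For none of these hairpins did the knockout and wild type libraries overlap. How many of all tested hairpins likewise did not overlap in the 5p share was not computed, here or in the comparisons below. The family was chosen by its arm balance, and nothing is read from such separation.

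The calls of single arms are listed for each hairpin, and no test set the hairpins against each other. In miR-30a the 5p arm was called lower and the 3p arm was not called. In miR-30d the 3p arm was called higher and the 5p arm was not called, and in miR-30e both were called, in opposite directions. Of the arms not called, miR-30d-5p stood at -0.45 ± 0.26 and miR-30a-3p at -0.29 ± 0.20, so a missing call does not show that an arm was unchanged. In the fit of the 5p to 3p ratio over 135 hairpins, the log2 change of the ratio was -1.51 ± 0.26 for miR-30a, -1.77 ± 0.30 for miR-30d and -2.69 ± 0.25 for miR-30e. All 3 were called, in the direction of the 3p arm, beside 40.7% of all hairpins called in either direction and 20.7% in that one. The median change over the 135 hairpins was 0.00, and miR-30e ranked 8th, miR-30d 21st and miR-30a 28th from the lowest. The arm balance chose the family, so nothing is read from the number called. A change of major arm in every library from 5p to 3p was seen in 5 of the 135 hairpins, 2 of them miR-30a and miR-30d, and from 3p to 5p in 3.

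**Figure D3:**
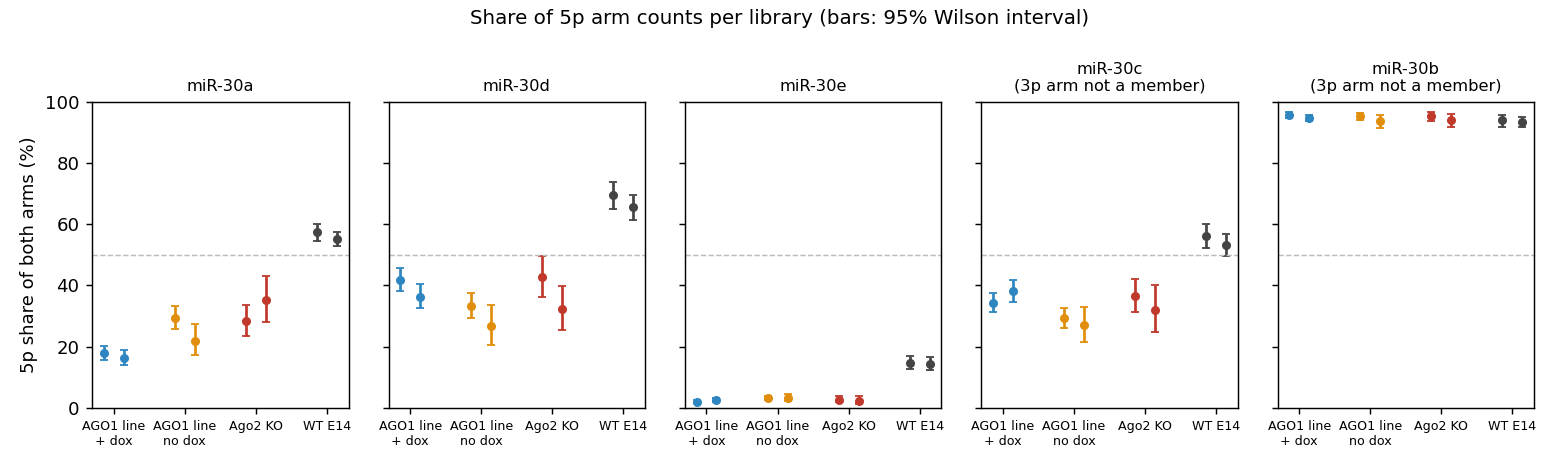
Share of the 5p arm in the counts of both arms (%), 1 point per library with its 95% Wilson interval, for 5 hairpins in the 4 groups, with a dashed line at 50%. The libraries without Ago2 lie below wild type in miR-30a, miR-30d, miR-30e and miR-30c, and all libraries of miR-30b lie between 93.5 and 95.8%.

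The other 3p arms of the family, which are no members, were set beside them. miR-30c, taken as its 5p arm against both of its 3p arms, gave 36.6 and 31.9% from the 5p arm in the knockout lines, against 56.1 and 53.2% in wild type. miR-30b gave 95.4 and 94.2% in the knockout lines, against 94.0 and 93.5% in wild type, and its log2 ratio change was 0.32 ± 0.29. In miR-30b both arms were higher together: miR-30b-3p had 84.8 and 130.8 CPM in the knockout lines, against 45.1 and 52.2 CPM in wild type (log2 fold change 1.10 ± 0.33). Of the miR-30c 3p arms, miR-30c-1-3p from the Nfyc intron had 277 and 236 CPM in the knockout lines, against 161 and 138 CPM in wild type (0.79 ± 0.25). miR-30c-2-3p had 195 and 236 CPM in the knockout lines, against 140.0 and 173 CPM in wild type (0.45 ± 0.27). The 5p share was thus lower in both knockout lines than in both wild type libraries for miR-30a, miR-30c, miR-30d and miR-30e, and not for miR-30b. The share of all hairpins that behaved in this way was not computed, so the values describe these hairpins only.

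**Figure D4:**
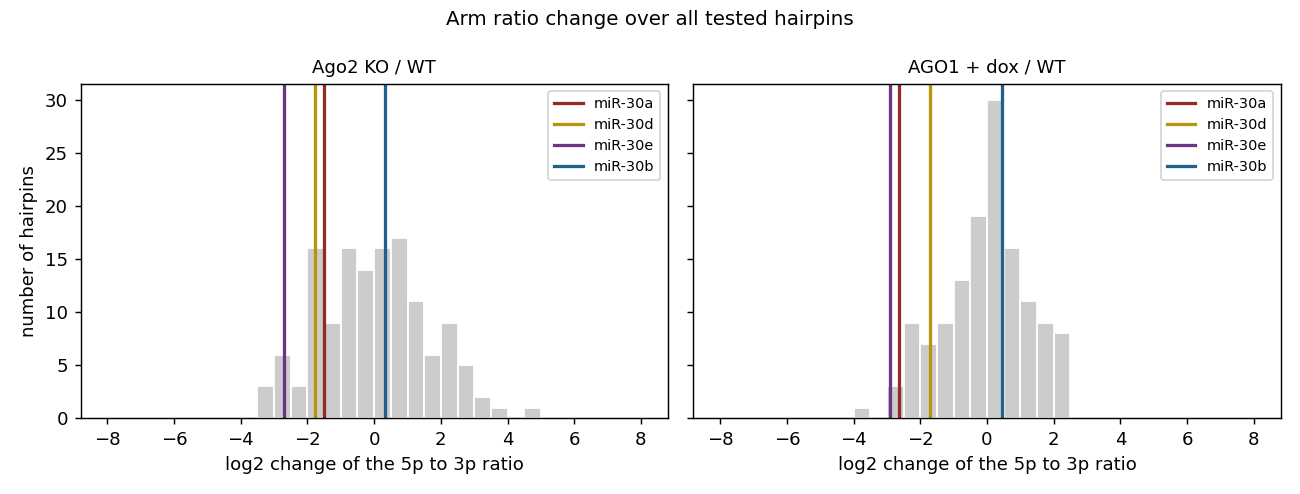
Histogram of the log2 change of the 5p to 3p ratio over 135 hairpins, for knockout against wild type and for the induced AGO1 line against wild type, with lines at the miR-30 hairpins. miR-30a, miR-30d and miR-30e lie left of the centre in both panels and miR-30b lies near it.

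The induced AGO1 line against wild type sets cells without AGO2 but with ectopic AGO1 beside cells with their own AGO2. The induced line was also kept in doxycycline and puromycin, for which wild type has no entry. These differences cannot be told apart. The same 5 members were called as in the knockout lines, 3 higher and 2 lower, beside 38.9% of all tested miRNAs (19.2% higher and 19.8% lower). In each of the 8 members the libraries did not overlap, as in 76.0% of tested miRNAs. Both comparisons share the wild type libraries. miR-30a-5p had 161 and 150.5 CPM in induced libraries A and B, against 812 and 836 CPM in wild type, 5.29-fold lower (log2 fold change -2.40 ± 0.23). miR-30e-5p had 53.0 and 57.8 CPM in the induced line, against 168 and 143.9 CPM in wild type (-1.49 ± 0.28). In the induced libraries both of these 5p arms had their lowest levels of all 8 libraries.

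miR-30e-3p had 2643 and 2318 CPM in the induced line, against 980.1 and 863 CPM in wild type (1.43 ± 0.18). miR-30b-5p had 1641 and 1439 CPM in the induced line, against 708 and 747 CPM in wild type (1.08 ± 0.19), and miR-30d-3p had 328 and 360 CPM in the induced line, against 153 and 160.1 CPM in wild type (1.13 ± 0.27). All 3 were higher in both induced libraries than in both wild type libraries. The call of miR-30d-3p was lost without wild type B or without induced library B, and that of miR-30e-5p without induced library A and with thinned libraries. miR-30a-3p (0.23 ± 0.20), miR-30c-5p (-0.53 ± 0.24) and miR-30d-5p (-0.57 ± 0.25) were not called. In edgeR 7 members had an unadjusted p under 0.05. With a library left out, the number of members called could also rise above that of the fit of all libraries. These missing calls thus do not show that the arms were unchanged. miR-30c-5p had 249.8 and 260.1 CPM and miR-30d-5p 235 and 205 CPM in the induced line, against 386 and 353 CPM and 350.0 and 305 CPM in wild type.

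The 5p share of miR-30a was 17.9 and 16.3% in the induced line, against 57.3 and 55.2% in wild type. That of miR-30d was 41.7 and 36.3% in the induced line, against 69.6 and 65.6% in wild type, and that of miR-30e 1.97 and 2.43% in the induced line, against 14.7 and 14.3% in wild type. The log2 ratio changes were -2.64 ± 0.24, -1.70 ± 0.27 and -2.92 ± 0.23. All 3 hairpins were called toward the 3p arm, beside 45.9% of the 135 hairpins in either direction and 23.7% in that one. miR-30e and miR-30a ranked 2nd and 4th from the lowest and miR-30d ranked 19th.

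Induction was described by comparing the AGO1 line with and without doxycycline. No cells without the inducible AGO1 were given doxycycline, and AGO proteins were not analysed. Effects of the drug and of AGO1 thus cannot be told apart. The 5p shares of miR-30a, miR-30d and miR-30e remained below both wild type libraries in all 4 libraries of the line. Of the 8 members 1 was called, miR-30e-5p, beside 28.8% of all tested miRNAs (7.79% lower). miR-30e-5p had 53.0 and 57.8 CPM in the induced line, against 106 and 99.2 CPM in the uninduced line (log2 fold change -0.90 ± 0.29). That call was lost in DESeq2 (which called miR-30e-3p instead), without an abundance filter, with thinned libraries, and without either library of wild type, of the uninduced or of the induced line.

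For miR-30a the 5p arm had lower and the 3p arm higher values with doxycycline, and neither was called. miR-30a-5p had 161 and 150.5 CPM in the induced line, against 232 and 182 CPM in the uninduced line (-0.42 ± 0.22), while miR-30a-3p had 739 and 771 CPM in the induced line, against 555 and 655 CPM in the uninduced line (0.32 ± 0.20). Its 5p share was 17.9 and 16.3% in the induced line, against 29.4 and 21.7% in the uninduced line, without overlap. miR-30d had the opposite order, with a 5p share of 41.7 and 36.3% in the induced line, against 33.3 and 26.6% in the uninduced line. miR-30c had the order of miR-30d, with 34.4 and 38.1% in the induced line, against 29.4 and 27.0% in the uninduced line. miR-30e stood at 1.97 and 2.43% in the induced line, against 3.04 and 3.14% in the uninduced line. In the fit of the ratio none of the 3 member hairpins was called (1 of them at an unadjusted p under 0.05 in edgeR, 0 in DESeq2 after adjustment), beside 5.93% of all hairpins (2.22% with a higher and 3.7% with a lower 5p to 3p ratio). The log2 ratio changes were -0.77 ± 0.26 for miR-30a, 0.55 ± 0.28 for miR-30d and -0.51 ± 0.24 for miR-30e. miR-30a was called toward the 3p arm in a fit of only the 2 groups, without either knockout line and without the 2 shallowest libraries.

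The other members were not called. miR-30e-3p had 2643 and 2318 CPM in the induced line, against 3401 and 3059 CPM in the uninduced line (-0.38 ± 0.18). miR-30b-5p had 1641 and 1439 CPM in the induced line, against 2033 and 1713 CPM in the uninduced line (-0.28 ± 0.19), and miR-30d-3p 328 and 360 CPM in the induced line, against 434 and 420 CPM in the uninduced line (-0.31 ± 0.27). For these 3 the libraries did not overlap. In all, 6 of the 8 members did not overlap, beside 72.4% of tested miRNAs. miR-30c-5p (0.03 ± 0.24) and miR-30d-5p (0.24 ± 0.25) overlapped. Scaled by library totals alone, the median log2 fold change of all tested miRNAs was -0.17 in place of 0.03, and miR-30c-5p stood at -0.18. The direction of 3 of these small differences was not stable. Without uninduced library B, miR-30c-5p stood at -0.35 and miR-30d-5p at -0.14, whereas without uninduced library A they stood at 0.44 and 0.67. With thinned libraries miR-30d-3p stood at 0.06.

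The uninduced AGO1 line and the knockout lines share their Ago2 genotype. The uninduced line also carries the inducible AGO1 and was kept in puromycin, for which the knockout lines have no entry. It is 1 line beside 2 lines, and these differences cannot be told apart. No member was called between them, and 0 of all 475 miRNAs were called by edgeR (0.0% of those tested, and 72 at an unadjusted p under 0.05), while DESeq2 called 15, none of them a member. The member furthest apart was miR-30e-5p, with 106 and 99.2 CPM in the uninduced line, against 79.8 and 60.4 CPM in the knockout lines (log2 fold change 0.53 ± 0.31). The libraries of 3 of the 8 members did not overlap, beside 44.6% of tested miRNAs. The other log2 fold changes lay between -0.36 ± 0.26 for miR-30d-5p (0.03 without uninduced library B) and 0.25 ± 0.18 for miR-30e-3p. With 1 library left out, direction also changed for miR-30a-5p (-0.56 to 0.11), miR-30b-5p (-0.33 to 0.24), miR-30c-5p (-0.44 to 0.38) and miR-30d-3p (-0.33 to 0.49). Those of miR-30a-3p, miR-30e-3p and miR-30e-5p stayed positive. Library totals alone put the median of all tested miRNAs at -0.19 in place of -0.01, and then miR-30c-5p and miR-30d-3p turned from slightly positive (0.01 and 0.05) to -0.17 and -0.15. The 5p shares of the uninduced line were 29.4 and 21.7% for miR-30a and 33.3 and 26.6% for miR-30d, against 28.3 and 35.1% and 42.9 and 32.3% in the knockout lines, and overlapped in both. miR-30e had 3.04 and 3.14% in the uninduced line, against 2.70 and 2.32% in the knockout lines. None of the 3 hairpins was called (0 at an unadjusted p under 0.05 in edgeR, 0 in DESeq2), beside 0.741% of all hairpins.

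In the makeup of each side of the family, wild type lay apart from all 6 other libraries for every member except miR-30d-3p. The counts chose the family, and no other family was set beside it, so nothing is read from this separation. miR-30b-5p took 68.1 to 70.1% of the counts of the 5p members in the induced line, 70.6 to 72.9% in the uninduced line and 68.9 to 72.6% in the knockout lines, against 29.2 to 31.3% in wild type. miR-30e-3p took 67.2 to 71.2% of the counts of the 3p members in the induced line, 74.0 to 77.5% in the uninduced line and 71.3 to 76.9% in the knockout lines, against 50.7 to 56.4% in wild type. miR-30a-3p took 19.9 to 22.4%, 12.6 to 15.8% and 13.6 to 15.1% in the same groups, against 34.8 to 39.9% in wild type. Its share was thus higher in the induced than in the uninduced line. miR-30d-3p took 8.85 to 10.4% in the induced line and 7.99 to 15.1% in the knockout lines, and both ranges overlapped the 8.81 to 9.41% of wild type. In the uninduced line it took 9.88 to 10.2%.

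**Figure D5:**
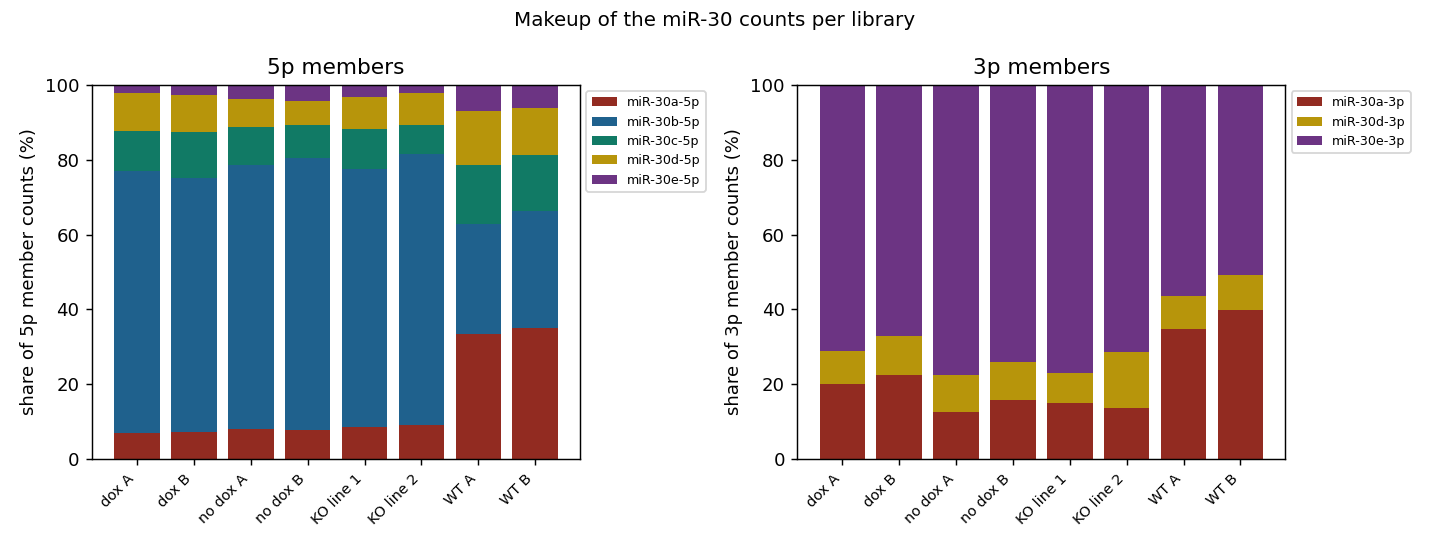
Share of each member in the counts of the 5p members (left) and the 3p members (right), in %, for each of the 8 libraries. miR-30b-5p fills 68.1 to 72.9% of the 5p bars of the 6 libraries without Ago2 and at most 31.3% of the wild type bars.

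Other hairpins known for giving both arms in quantity were set beside the family from a list of 8, namely miR-9, miR-17, miR-28a, miR-126a, miR-140, miR-142a, miR-151 and miR-199a. Of the 6 that could be tested, 2 were called toward the 3p arm (miR-17 and miR-126a) and 1 toward the 5p arm (miR-151) in knockout against wild type, with a median log2 ratio change of -0.30. In the induced AGO1 line against wild type, miR-17 and miR-142a were called toward the 3p arm and miR-140 toward the 5p arm, with a median of -0.01. None was called on induction. The list was thus mixed in direction.

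Among 377 other miRNAs with a mean of at least 20 CPM, those whose log2 levels over the 8 libraries were most like the sum of the 3p members were miR-92b-3p (Pearson r = 0.972), miR-335-5p (0.971) and miR-125b-5p (0.961). For the sum of the 5p members they were miR-378c (0.854), miR-26a-2-3p (0.838) and miR-20a-5p (0.820). These are descriptions over 8 libraries that fall into 4 groups and share their scaling, and the sum of the 5p members ranged only from 2113 to 2923 CPM.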

How the data were processed

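Small RNA was sequenced from 1 µg of total RNA per library with an Illumina TruSeq small RNA kit, per the labels' protocols. The authors deposited raw whole counts for each mature miRNA. Per the submitters' processing notes, the tool was Bowtie and the build mm10. The sources used here do not give trimming, mismatches, treatment of multi-matching reads, strand or miRNA release. Of the 2 header lines the first was used, since 1 name in the second differed (both wild type).

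Of 1915 miRNAs, 475 passed edgeR's filterByExpr and held 99.9% of counts. One edgeR quasi-likelihood fit of 8 libraries and 4 groups (4 residual degrees of freedom, TMM factors 0.881 to 1.22, biological coefficient of variation 0.244) served all 4 comparisons. SE is the log2 fold change over the square root of F. The arm ratio was fitted over 135 hairpins with both arms tested under the same hairpin name, with library, arm and arm by group terms. miR-30c was not among them, although its arms passed the filter, because they are listed under different hairpin names. The ranks and percentages of hairpins therefore do not cover miR-30c. R 4.3.3, edgeR 4.0.16, limma 3.58.1, DESeq2 1.42.0 and scipy 1.17.1 were used, and the fits were tested on simulated data. Members, lists and tests were chosen with earlier results of these data known. Named miRNAs are the members, the other arms of their hairpins, the listed hairpins and the 3 miRNAs most like each sum. Alternatives were other size factors, library totals, DESeq2, other filters, only 2 groups, each library left out, a replicate block and thinning. A fit without the 2 shallowest libraries was added after seeing the data.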

Additional observations from a re-analysis of the deposited data

How the results depend on the processing

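With knockout or induced line against wild type, the 5 members called and the 3 hairpins called kept their direction under every alternative run. In knockout against wild type, miR-30a-5p, miR-30b-5p, miR-30d-3p, miR-30e-3p and the 3 hairpins stayed called in every alternative that kept 2 libraries in each group. How many of all tested miRNAs or hairpins likewise stayed called was not computed. The same counts chose the family, so nothing is read from these lasting calls. In induced line against wild type, the number of members called with 1 library left out ranged from below to above that of the reported fit. On induction 1 member was called in the reported fit, 2 with DESeq2 size factors, with library totals without TMM factors and with only the 2 groups compared (miR-30e-3p beside miR-30e-5p), and 0 without an abundance filter and with thinned libraries. The DESeq2 test also called 1, miR-30e-3p in place of miR-30e-5p. With 1 library left out it was 0 to 1. The hairpins called on induction were 0 in the reported fit, 1 with only the 2 groups and without the 2 shallowest libraries, and 0 to 1 with 1 library left out. Thinned to the smallest library, the 5p share of miR-30e was 2.91% in the knockout lines and 2.91% in the uninduced line, and that of miR-30d 32.5% in the induced line. By TMM-scaled CPM the family held 0.640% in the knockout lines and 0.581% in the induced line. With the replicate block 6, 1, 0 and 5 members were called (knockout against wild type, induction, uninduced line against knockout, induced line against wild type) and 3, 0, 0 and 3 hairpins. The sixth was miR-30c-5p. Letters and line numbers share only a number (correlations of same-numbered libraries -0.01 to 0.24). Depth limits miR-30e-5p most, with 12 counts in knockout line 2.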

Other observations

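Outside the named arms, the table lists miR-30f, whose gene GENCODE vM21 annotates over the Mir30e hairpin, on the opposite strand. It had 1 and 1 counts in the induced AGO1 line, 4 and 0 in the uninduced line, 3 and 1 in the knockout lines and 1 and 7 in wild type. At those counts it was not tested. miR-384-5p, which shares the seed GUAAACA with the 5p members, had at most 5.32 CPM in any library and was listed at 0 in both wild type libraries. These miRNAs were named after their values were seen.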
